A study of Mus musculus with 32 samples.

Results

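The transcripts described here are those that stood out in the mouse clear cell sarcomas against 3 other tissue classes. A transcript was taken where its median RPKM over the clear cell sarcomas was at least 5 and that median plus 1 was at least 4 times the median plus 1 of osteosarcoma, of synovial sarcoma and of the control samples. RPKM counts the reads of a transcript per kilobase of its length and per megaread of the library. Of the 55419 transcripts in the deposited table, 265 (0.478%) met the rule, and they are called the restricted transcripts below. The members were thus chosen by their class median RPKM, so the contrast of clear cell sarcoma with the other classes is described and not tested.

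RNA was sequenced from 32 mouse libraries, 13 of clear cell sarcoma, 7 of osteosarcoma, 6 of synovial sarcoma and 6 of control tissue. The clear cell sarcomas were started with Rosa26CreER in 5 libraries, TATCre in 4, Prx1CreERT2 in 2 and Bmi1IRESCreERT2 in 2, and all 13 titles carry EA1, which the labels do not spell out. The osteosarcoma titles name Rb1 and p53 with Col1Cre in 4 libraries and with Prx1Cre in 3, those of synovial sarcoma carry Myf5-SSM2/PLUC, and 5 controls are titled Chest and 1 Bone. The labels give no strain, age, sex, tamoxifen schedule or control tissue. Because each tumour class has its own alleles in its titles, class and genotype cannot be told apart. The TATCre titles end in RLN, Rleg, Lleg and Larm. No title of the other 9 clear cell sarcomas has such an ending, so what the endings stand for and the Cre cannot be told apart. The first 2 of these TATCre titles share the number N123. Among the synovial sarcomas, 3 titles share the number 37 and 2 share 39. Nothing in the labels says whether libraries came from separate animals, and the p-values below measure only how these libraries differed, which may be partly technical.

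In patients, clear cell sarcoma arises in tendons and other deep soft tissue and usually carries a fusion of EWSR1 with ATF1. ATF1 belongs to the CREB family of transcription factors, which normally answer to cyclic AMP signalling, and the fusion keeps its DNA-binding part under the control of EWSR1's activating part. Human tumours of this kind express MITF and pigment genes and can resemble melanoma. Cre is a DNA recombinase used in such models to switch alleles. The CreER and CreERT2 forms need tamoxifen, Rosa26 is active in most cell types, Prx1 in limb mesenchyme and Bmi1 in several stem and progenitor populations. TATCre is Cre fused to a peptide that carries it into cells from outside, so that it acts in whatever cells it reaches. In the other tumours, Col1Cre is driven by a collagen I promoter and Myf5 is a regulator of the muscle lineage.

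The table names transcripts by UCSC identifiers, and neither it nor the reference tables used here pair these with gene names. Whether the restricted transcripts include pigment, neural crest or cyclic AMP response genes was therefore not examined, and the label of each tissue was not checked against its markers. The identifiers of 4 transcripts are printed, and the others are given by rank, length and level.

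Read depth and transcript lengths were recovered from the steps of the RPKM values. Depth was 8.11 to 13.1 megareads per library. The clear cell sarcomas had 9.54 ± 1.22 megareads (SD, n = 13), the osteosarcomas 10.6 ± 0.945 (n = 7), the synovial sarcomas 10.3 ± 1.72 (n = 6) and the controls 10.3 ± 1.02 (n = 6). A length was found for all 265 restricted transcripts, from 3 to 11564 bases with a median of 862, against a median of 1109 over the transcripts tested between classes. Among them, 46 (17.4%) were under 100 bases, compared with 10.5% of the tested transcripts. These 46 rested on few reads, with a median of 12.5 reads per clear cell sarcoma library and fewer than 30 in 40 of them. Only 4 of the 46 were above 0 in every clear cell sarcoma library. The other 219 rested on a median of 312 reads, 25 of them on fewer than 30, and their levels are described first. Whether these lengths are of whole transcripts or of parts of them is not stated.

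The 219 longer transcripts had class medians of 5.22 to 3414 RPKM in clear cell sarcoma, with a median of 26.5, and 58 of them were at 100 RPKM or more. Their margin, the clear cell sarcoma median plus 1 over the highest other class median plus 1, ran from 4.05 to 248 with a median of 8.07. At the edge of the rule, the 5 members of smallest margin had 4.05 to 4.14, and the 5 excluded transcripts of largest margin had 3.84 to 3.98. The 5 members of lowest level had 5.22 to 5.35 RPKM, and the 5 excluded transcripts next below had 4.86 to 4.99. The set therefore grades into its surroundings on both measures.

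Levels in the other classes were mostly very low. The osteosarcoma median was listed at 0 for 111 of the 219, the control median for 92 and the synovial sarcoma median for 55, and all 3 medians were at 0 for 52. A class median of 5 RPKM or more in spite of the margin was found for 58 transcripts in synovial sarcoma, 47 in osteosarcoma and 46 in the controls. Only 3 transcripts were listed at 0 in all 19 other libraries. Among the 3 other class medians, the highest was that of synovial sarcoma for 100 transcripts, of osteosarcoma for 44 and of the controls for 23.

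The separation was wide between classes in bulk. Together the 219 transcripts took 4.41% to 16.8% of the reads of each clear cell sarcoma library. In osteosarcoma they took 0.311% to 1.90%, in synovial sarcoma 0.302% to 0.739% and in the controls 0.176% to 0.331%. The 10 transcripts of highest level supplied 38.3% to 52.0% of these reads in the clear cell sarcomas. Counted by transcript, 163 to 198 of the 219 were at 5 RPKM or more in each clear cell sarcoma library, against 37 to 81 in osteosarcoma, 53 to 81 in synovial sarcoma and 40 to 54 in the controls. In bulk tissue, fewer cells of a type and less RNA per cell cannot be told apart.

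**Figure D1:**
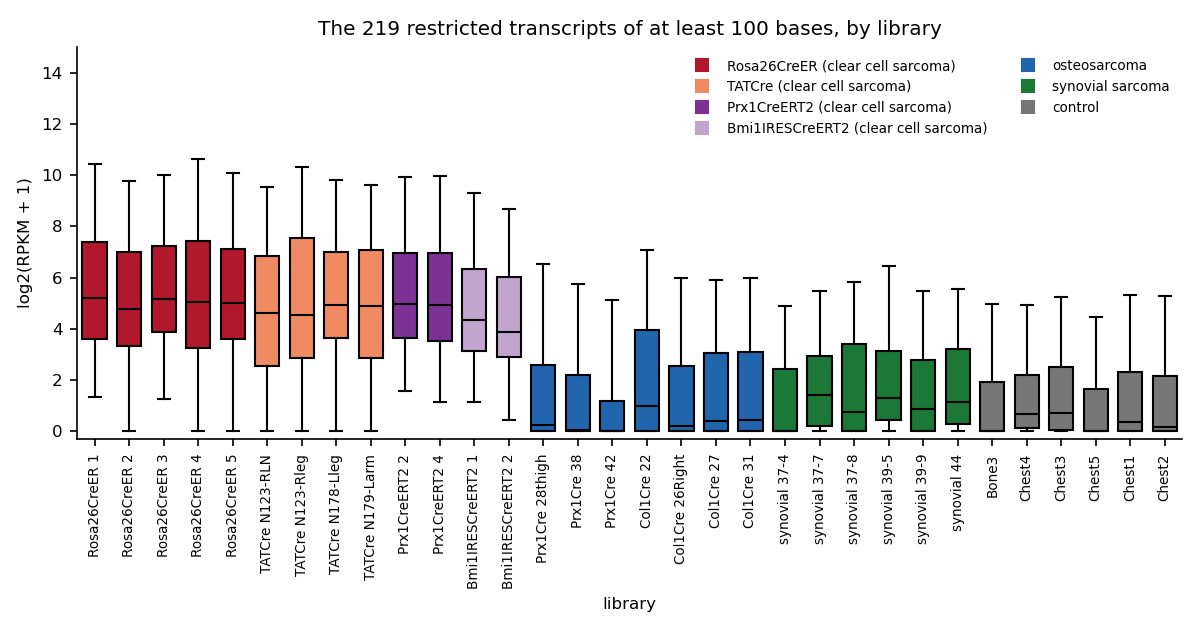
Box plots of log2(RPKM + 1) of the 219 restricted transcripts of at least 100 bases in each of the 32 libraries, coloured by group. Boxes span the quartiles with the median as a line and whiskers run from the 5th to the 95th percentile. The 13 clear cell sarcomas lie above the 19 other libraries, and Bmi1IRESCreERT2 2 has the lowest median of the 13, 13.9 RPKM.

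Separation library by library was much rarer than separation of medians. For 53 of the 265 (52 of the 219), every clear cell sarcoma library was above every one of the 19 other libraries. That arrangement was met by 0.466% of the tested transcripts (71 of 15230). The rule itself shapes the share among the members, so nothing is read from the difference. At the other extreme, 23 of the 219 had at least 1 library of another class above the clear cell sarcoma median. The osteosarcoma library Col1Cre 22 was at or above that median for 7 transcripts, and no other library was for more than 3.

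Col1Cre 22 stood apart from the other osteosarcomas. It was at least 4-fold above the median of the other 6 on the RPKM plus 1 scale for 40 of the 219 (18.3%). The count was 8 to 15 for each of the other osteosarcoma libraries, and the share of all expressed transcripts in Col1Cre 22 was 3.50%. The rule caps the osteosarcoma median of the members, which makes such an excess easier to reach. The 3.50% is therefore given for scale, and nothing is read from the difference. It was also the highest of all 19 other libraries for 40 transcripts, ahead of synovial 39-5 with 25 and synovial 37-7 with 21. Of its reads on the 219, 26.6% came from the transcript of fifth-highest level. Without Col1Cre 22 the rule gave 260 transcripts, 258 of them among the 265. Prx1Cre 42 was the lowest osteosarcoma library, with 37 of the 219 at 5 RPKM or more, and without it the rule gave 251 transcripts, 250 of them shared.

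The transcript of largest margin had 2073 bases. Its RPKM was 486, 140.0, 224, 334 and 443 in the Rosa26CreER libraries, 638, 507, 629 and 594 in TATCre, 237 and 534 in Prx1CreERT2, and 250.0 and 184 in Bmi1IRESCreERT2. No library outside clear cell sarcoma exceeded 1.34. All 13 tumours were high and the classes were far apart. The transcript of second-largest margin, of 3083 bases, had 992 to 2692 RPKM in Rosa26CreER, 789 to 1272 in TATCre, 494 and 1022 in Prx1CreERT2, and 199 and 919 in Bmi1IRESCreERT2. The controls had 0.668 to 2.80, the synovial sarcomas 1.8 to 5.92 and 6 of the osteosarcomas 0.0603 to 10.3, whereas Col1Cre 22 had 105. Col1Cre 22 was below every clear cell sarcoma and about an order of magnitude above the rest. Of the 10 transcripts of largest margin, 7 had no overlap between clear cell sarcoma and the other libraries.

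High level and wide margin were mostly found in different transcripts, and only 2 were among the 10 highest on both measures. The transcript of highest level, of 1391 bases, had 3414 to 13756 RPKM in Rosa26CreER, 2382 to 4854 in TATCre, 1838 and 4474 in Prx1CreERT2, and 3261 and 652 in Bmi1IRESCreERT2. Its levels elsewhere were 26.2 to 1021 in osteosarcoma, 130 to 646 in synovial sarcoma and 81.8 to 228 in the controls. The 2 classes of tumour with the highest values, clear cell sarcoma and osteosarcoma, overlapped through Bmi1IRESCreERT2 2. Of the 10 transcripts of highest level, 4 had no overlap with the other libraries.

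The second question was whether the restricted transcripts are shared by clear cell sarcomas that were started in different ways. The rule used the median of the 13 and not the split by Cre, and it can be met with as few as 7 libraries, so a transcript can be low in a whole Cre group and still belong. For 21 of the 219 the 4-fold margin held in each of the 13 libraries taken singly, and for 78 it held in only 7 or 8. Taken by group median, the margin held for 193 in Rosa26CreER, 189 in Prx1CreERT2, 155 in Bmi1IRESCreERT2 and 152 in TATCre. It held in all 4 group medians for 76. It was missing from TATCre alone for 49, from Bmi1IRESCreERT2 alone for 32, and from Rosa26CreER alone and Prx1CreERT2 alone for 11 each. The groups differ in size, so these counts are no ranking of the Cre.

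**Figure D2:**
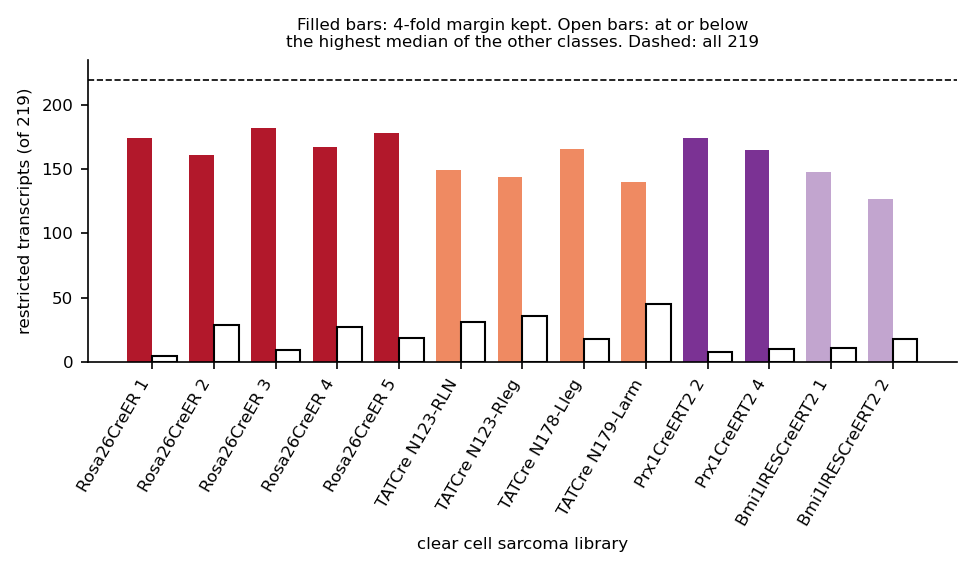
Number of the 219 restricted transcripts in each clear cell sarcoma library that keep the 4-fold margin (filled bars) and that lie at or below the highest of the other 3 class medians (open bars). The margin was kept for 127 transcripts in Bmi1IRESCreERT2 2 to 182 in Rosa26CreER 3, and the open bar is tallest in TATCre N179-Larm with 45.

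Libraries of 1 Cre group also differed in the restricted transcripts. The highest library of a group exceeded the lowest, on the RPKM plus 1 scale, by a median of 5.77-fold over the 219 in Rosa26CreER, against 2.18-fold over the 15195 transcripts tested in the clear cell sarcomas. The same ratios were 3.29 against 2.18 in TATCre, 1.81 against 1.2 in Prx1CreERT2 and 2.21 against 1.47 in Bmi1IRESCreERT2. The members were chosen by their level in these same 13 libraries, and adding 1 narrows the spread of low values. The wider spread is therefore not read as particular to the members. Over all 13 tumours the median spread was 27.1-fold, it was under 4-fold for 2 transcripts and at least 100-fold for 43. No single library carried the set. Rosa26CreER 4 was the highest clear cell sarcoma for 46 of the 219, TATCre N123-Rleg for 27, Prx1CreERT2 4 for 26, and each of the other 10 for 4 to 21.

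Some of the low values were listed at 0, which in this table need not mean absence. Of the 2847 values of the 219 in clear cell sarcoma, 188 (6.60%) were at 0, compared with 26 that stood for 1 to 4 reads. Of these zeros, 99 fell on transcripts with a median under 30 reads and 26 on the 148 transcripts with a median of at least 100. TATCre N179-Larm had the most, 33, and the Prx1CreERT2 libraries the fewest, 4 each.

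Across the 4 Cre groups, a limma F test on log2(RPKM + 1) over all 15195 transcripts tested called 61 of the 265 restricted transcripts (23%) at an adjusted p under 0.05, against 10.7% of all tested. All 265 had passed the filter on low values, which they did through the same libraries that had made them high. The shares of all tested transcripts are given for scale, and neither here nor in the contrasts below is a larger share read as particular to the members. The unadjusted p was under 0.05 for 131, and the like share of all tested transcripts was not computed. Of the 61, 56 were at least 100 bases long. The highest group of the 61 was Rosa26CreER in 29 (47.5%), TATCre in 19 (31.1%), Prx1CreERT2 in 11 and Bmi1IRESCreERT2 in 2. Over all 1633 transcripts called it was TATCre in 723 (44.3%), Rosa26CreER in 386 (23.6%), Bmi1IRESCreERT2 in 321 and Prx1CreERT2 in 203. The lowest group of the 61 was TATCre in 30 (49.2%), Bmi1IRESCreERT2 in 15, Rosa26CreER in 10 and Prx1CreERT2 in 6. Over all transcripts called it was Bmi1IRESCreERT2 in 29.8%, TATCre in 27.7%, Prx1CreERT2 in 25.2% and Rosa26CreER in 17.3%. The rule took the median of the same 13 libraries, 5 of which are Rosa26CreER, so it favours transcripts that are high there, and these counts are no ranking of the Cre either. Without TATCre N179-Larm the F test called 39, and without TATCre N123-RLN it called 40. Calls over all tested transcripts fell as well, from 1633 to 759 and 830. Among the 93 of the 265 with the margin in every group median, 8 were called. These 93 were picked by the same group values that the test compares, so nothing is read from that count.

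TATCre and Rosa26CreER were the 2 groups with the most libraries. Between them 51 of the 265 were lower in TATCre (19.2%, against 7.16% of all tested transcripts) and 27 were higher (10.2%, against 5.53%), by limma in the same fit with adjusted p under 0.05. The other 187 were not called. The median log2 difference, TATCre minus Rosa26CreER, was -0.53 over the members and -0.28 over all tested transcripts. With 44 calls, 29 lower and 15 higher, the count was smallest without TATCre N179-Larm. Calls over all tested transcripts then fell as well, from 1928 to 728. Quantile normalization moved the median of all tested transcripts by 0.28 on the log2 scale and called 45 lower and 27 higher, with 1660 calls over all tested.

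**Figure D3:**
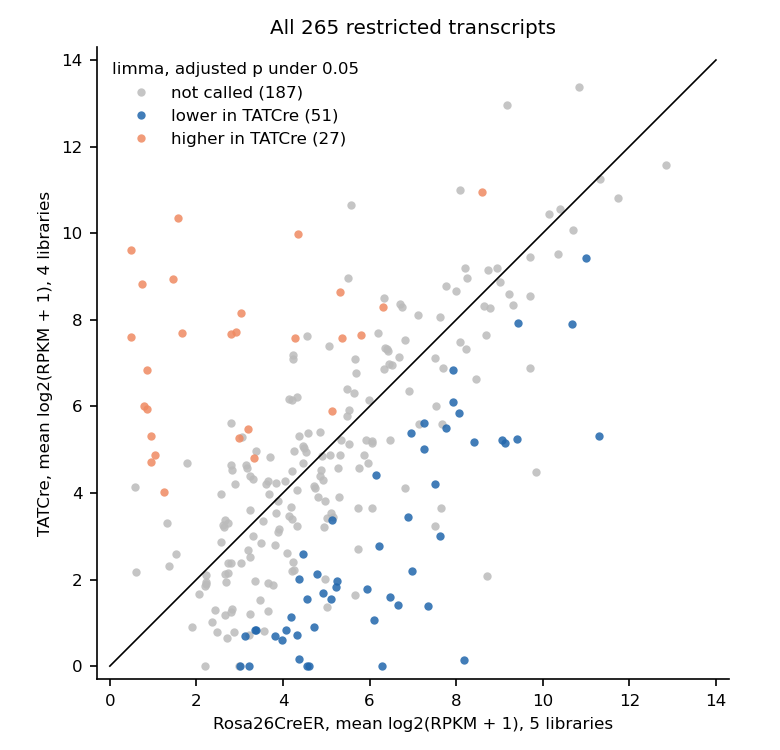
Mean log2(RPKM + 1) of each of the 265 restricted transcripts in the 5 Rosa26CreER libraries (horizontal axis) and the 4 TATCre libraries (vertical axis), with the line of equal levels. Blue points are the 51 called lower in TATCre and orange points the 27 called higher, and several of each lie at or near 0 in the lower group.

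The 51 transcripts lower in TATCre had a median of 73.5 RPKM over their Rosa26CreER medians and of 2.42 over their TATCre medians. Over the same transcripts the value was 34.1 in Prx1CreERT2, 30.5 in Bmi1IRESCreERT2 and 1.57 for the highest other class. In 46 of the 51 the 4-fold margin was missing from the TATCre median, and in 20 the TATCre median was at or below the highest other class median. The margin was present for all 51 in Rosa26CreER, 45 in Prx1CreERT2 and 43 in Bmi1IRESCreERT2. For these 46, the median of the TATCre tumours taken alone would not have met the rule's margin. The drop was at least 4-fold for 42 and at least 16-fold for 14, with a median log2 difference of -3.24, and 5 were listed at 0 in all 4 TATCre libraries. For 40 no TATCre library reached the lowest Rosa26CreER library. Counted without regard to the test, 43 of the 265 (16.2%) were arranged so, against 8.32% of all tested. The same transcripts were called lower in TATCre than in Prx1CreERT2 in 9 cases and than in Bmi1IRESCreERT2 in 17, contrasts that share the TATCre libraries. The like shares over all transcripts called lower in TATCre than in Rosa26CreER were not computed.

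The largest drop among the longer transcripts was that of uc009nko.1, of 663 bases and with margin rank 10. Its RPKM was 1381, 839, 387, 20.6 and 212 in Rosa26CreER, 0.476, 0, 0 and 0 in TATCre, 77.4 and 6.23 in Prx1CreERT2, and 103 and 175 in Bmi1IRESCreERT2. Every library of the other 3 Cre groups was above every TATCre library, although Rosa26CreER itself spanned a wide range. All 6 controls were listed at 0, as were 5 synovial sarcomas and 6 osteosarcomas, and Col1Cre 22 had 5.41. The log2 difference, TATCre minus Rosa26CreER, was -8.04 (SE 1.07, limma adjusted p = 0.00135), and that against Bmi1IRESCreERT2 was -6.94 (SE 1.38, adjusted p = 0.0149). Against Prx1CreERT2 it was -4.43 (SE 1.38) and did not pass (adjusted p = 0.115).

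Transcript uc007xee.1, of 305 bases, showed the cleanest split. It had 64.7, 73.5, 104, 128 and 42.5 RPKM in Rosa26CreER, 48.8 and 27.1 in Prx1CreERT2, and 34.2 and 34.6 in Bmi1IRESCreERT2, and it was listed at 0 in all 4 TATCre libraries. Every osteosarcoma and control library was also listed at 0, and the highest synovial sarcoma had 0.881. TATCre differed from each of the other 3 Cre groups by limma, with adjusted p = 6.32e-07 against Rosa26CreER, 1.12e-05 against Prx1CreERT2 and 4.17e-05 against Bmi1IRESCreERT2. No fold is given, since 1 group is listed at 0. The transcript in the next row of the table, of 257 bases, was also a member and was correlated with it across the 13 tumours (r = 0.86, a description over libraries that share depth and Cre groups).

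The transcript of fifth-highest level, of 3202 bases, was lower in TATCre at a far higher level. It had 1739.7, 1326, 3821, 6616 and 1703 RPKM in Rosa26CreER, 541 and 962 in Prx1CreERT2, and 1636 and 2873 in Bmi1IRESCreERT2, against 26.4, 18.9, 72.3 and 63.2 in TATCre. The controls had 35.6 to 78.6, so that the TATCre tumours lay within or below the control range. Synovial sarcomas ranged from 14.1 to 306, and osteosarcomas from 2.00 to 159 apart from Col1Cre 22, which at 1582 lay among the Rosa26CreER tumours. The log2 difference, TATCre minus Rosa26CreER, was -5.97 (SE 0.54, limma adjusted p = 9.68e-05). Against Prx1CreERT2 it was -4.17 (SE 0.70, adjusted p = 0.00825) and against Bmi1IRESCreERT2 -5.76 (SE 0.70, adjusted p = 0.00164). A transcript of 1892 bases, eleventh by margin, showed the same order, with 70.6 to 162 RPKM in Rosa26CreER and 0.611 to 3.08 in TATCre, and 44.7 to 147 in the other 4 clear cell sarcomas.

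The 27 transcripts higher in TATCre had a median of 185 RPKM over their TATCre medians and of 4.75 over their Rosa26CreER medians. The value was 23.6 in Prx1CreERT2, 9.53 in Bmi1IRESCreERT2 and 0.454 for the highest other class. The margin was present for all 27 in TATCre, 24 in Prx1CreERT2, 15 in Bmi1IRESCreERT2 and 11 in Rosa26CreER. In 12 the Rosa26CreER median was at or below the highest other class median, and none was listed at 0 in all 5 Rosa26CreER libraries. The rise was at least 4-fold for 23 and at least 16-fold for 14, with a median log2 difference of 4.36. For 21 every TATCre library was above every Rosa26CreER library, and without regard to the test 29 of the 265 (10.9%) were arranged so, against 5.96% of all tested. Of the 27, 19 were also called higher than Bmi1IRESCreERT2 and 7 higher than Prx1CreERT2, contrasts that share the TATCre libraries. The like shares over all transcripts called higher in TATCre than in Rosa26CreER were not computed.

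Transcript uc012fvj.1, of 860 bases, had the largest rise among the longer transcripts. TATCre had 345, 884, 187 and 728 RPKM, Prx1CreERT2 14.7 and 27.8, Bmi1IRESCreERT2 2.87 and 0, and Rosa26CreER 0, 0, 0.738, 0 and 6.74. The 4 TATCre libraries were all above the other 9, with Prx1CreERT2 between them and the rest. No osteosarcoma was above 0, and the highest synovial sarcoma and control had 1.07 and 0.780. The log2 difference from Rosa26CreER was 8.07 (SE 0.71, limma adjusted p = 7.60e-05). It was 4.41 from Prx1CreERT2 (SE 0.91, adjusted p = 0.0260) and 7.85 from Bmi1IRESCreERT2 (SE 0.91, adjusted p = 0.00112).

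Transcript uc007ubp.1, of 512 bases, was near the lower edge of the rule, with a clear cell sarcoma median of 5.32 RPKM. It had 305, 1271, 383 and 396 RPKM in TATCre, 24.4, 0, 5.32, 0 and 0 in Rosa26CreER, 2.40 and 8.78 in Prx1CreERT2, and 4.61 and 0.890 in Bmi1IRESCreERT2. Its place in the set thus rested on the TATCre libraries together with low but nonzero values elsewhere. The osteosarcoma Prx1Cre 28thigh had 11.6, above 8 of the 9 clear cell sarcomas outside TATCre, and no other library of the 3 classes exceeded 1.68. The log2 difference from Rosa26CreER was 7.48 (SE 0.97, limma adjusted p = 0.00120). The transcript in the row before it, of 411 bases, was also a member, with 103 to 513 RPKM in TATCre and 0 to 29.3 in the other clear cell sarcomas, and the r between them over the 13 tumours was 0.98. Rows that follow each other may share a locus and reads, and the files do not say so.

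**Figure D4:**
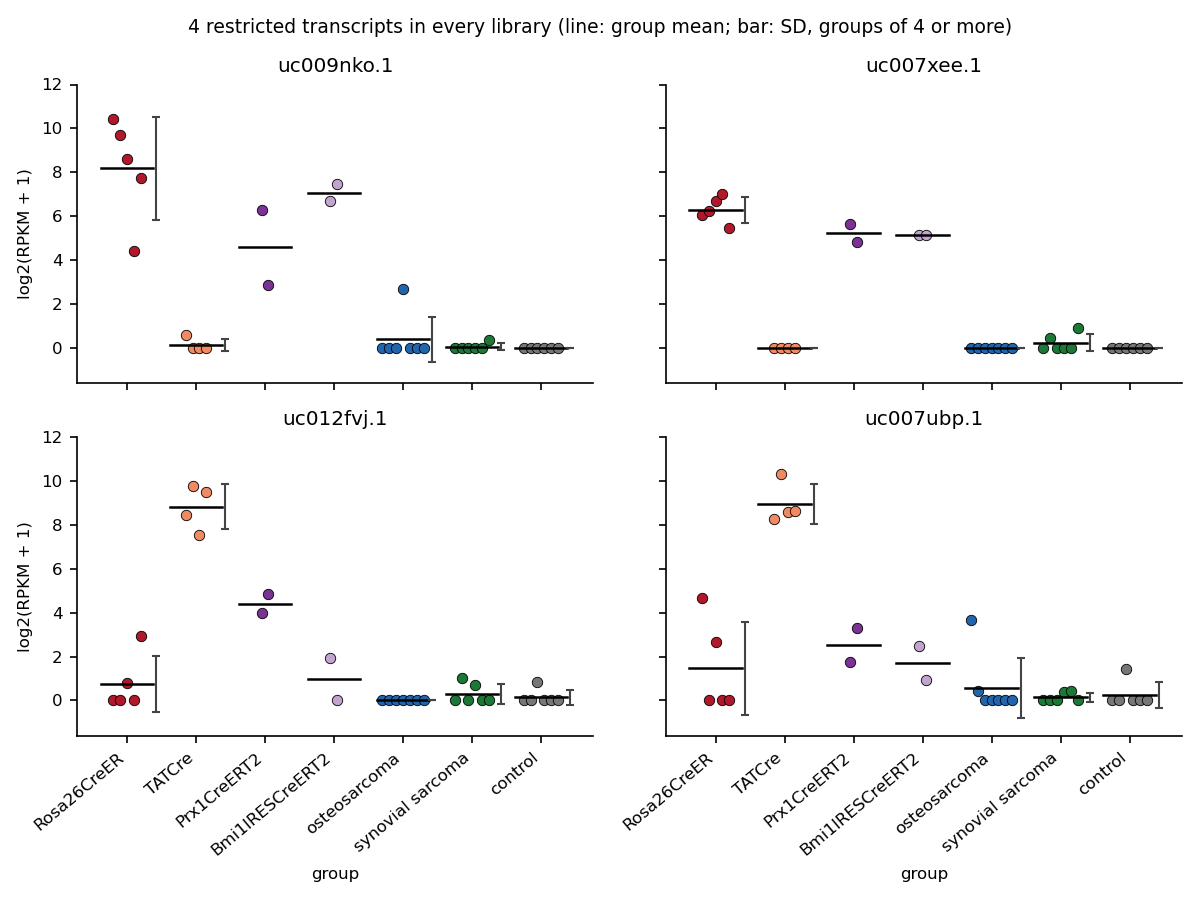
The 4 transcripts printed by identifier, as log2(RPKM + 1) in each library (points) by group, with the group mean (line) and, for groups of 4 or more, the SD (bar). In the upper panels TATCre lies with osteosarcoma, synovial sarcoma and the controls near 0, and in the lower panels TATCre alone is above 7.

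A gradual case was the transcript of seventh-largest margin, of 1900 bases, which was present in every clear cell sarcoma. It had 222 to 893 RPKM in Rosa26CreER, 1264 to 3398 in TATCre, 815 and 2070 in Prx1CreERT2, and 172 and 288 in Bmi1IRESCreERT2, while no other library exceeded 22.2. TATCre lay above Rosa26CreER without overlap, by 2.35 on the log2 scale (SE 0.45, limma adjusted p = 0.01), and the margin held in all 13 tumours. Of the 10 transcripts of largest margin, 2 were called by the F test, and of the 10 of highest level, 3.

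Between the other pairs of Cre groups, each of which includes a group of 2 libraries, fewer members were called. TATCre was higher than Bmi1IRESCreERT2 for 31 of the 265 and lower for 18, against 7.43% and 4.16% of all tested (limma, adjusted p under 0.05). TATCre was higher than Prx1CreERT2 for 7 and lower for 9, against 1.8% and 1.03%. Rosa26CreER was higher than Prx1CreERT2 for 5 and lower for 1, against 1.29% and 0.658%. Prx1CreERT2 was higher than Bmi1IRESCreERT2 for 2 and lower for none by limma, against 0.48% and 0.52%, and 52 had an unadjusted p under 0.05. No member was called between Rosa26CreER and Bmi1IRESCreERT2 by limma (0% and 0.0263% of all tested), where 52 had an unadjusted p under 0.05. The shares of all tested transcripts with an unadjusted p under 0.05 were not computed, so nothing is read from the unadjusted counts. These contrasts share groups and are not independent of each other.

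**Figure D5:**
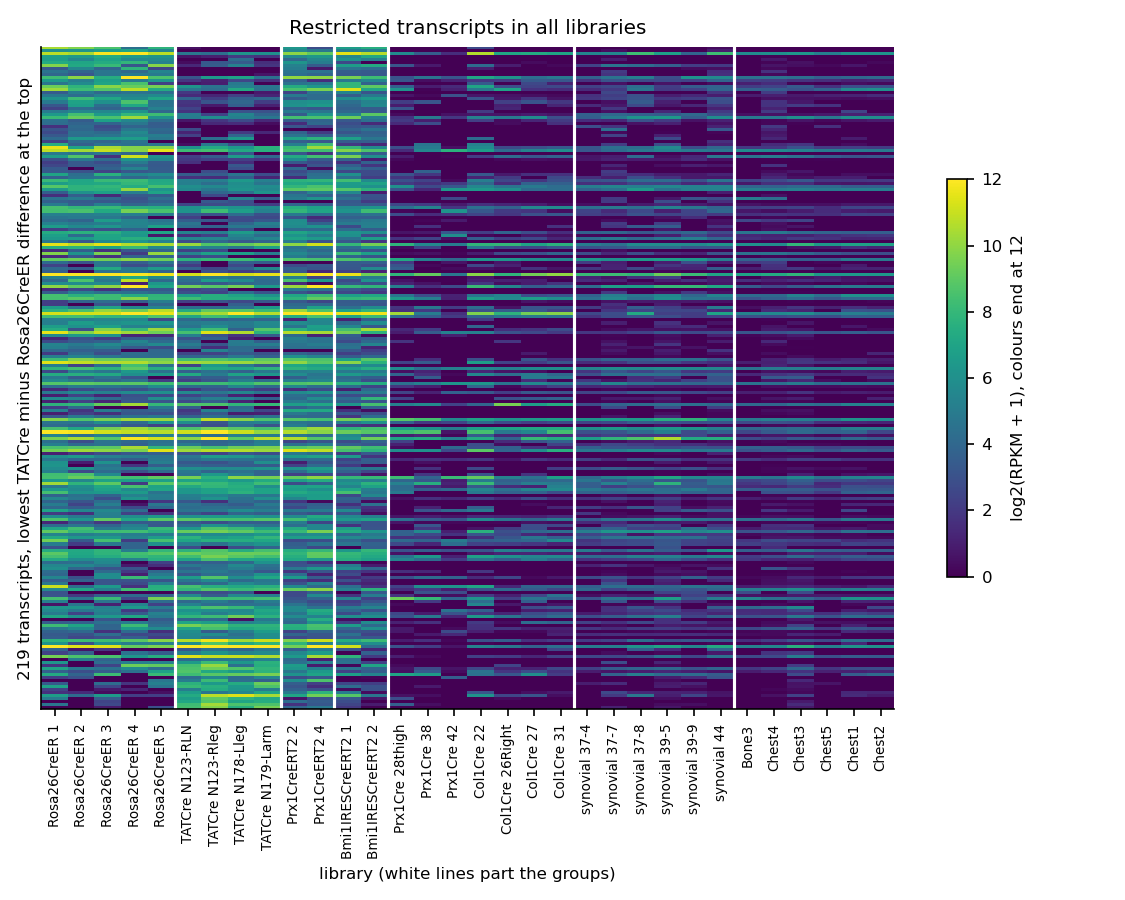
Log2(RPKM + 1) of the 219 restricted transcripts (rows) in the 32 libraries (columns), with rows ordered by the TATCre minus Rosa26CreER difference and groups parted by white lines. The top rows are dark in the 4 TATCre columns and the bottom rows are bright there and patchy in Rosa26CreER, while the 19 columns on the right are dark for most rows.

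The 3 classes in which the restricted transcripts are low were also set against each other, with limma over 15230 transcripts in all 32 libraries. The rule caps each of these classes, every one of the 265 had passed the filter through the clear cell sarcomas, and many were listed at 0 in the classes compared, where no call can arise. The counts are therefore a description of single members, and nothing is read from their shares being below those of all tested transcripts. Osteosarcoma was higher than the controls for 26 of the 265 (9.81%, against 26.6% of all tested) and lower for 4 (1.51%, against 13%). Synovial sarcoma was higher than the controls for 30 (11.3%, against 36.5%) and lower for 1 (0.377%, against 6.67%). Osteosarcoma was higher than synovial sarcoma for 6 (2.26%, against 5.69%) and lower for 12 (4.53%, against 21.8%). The split into higher and lower moved with the scaling of the libraries. With median ratio scaling it became 18 and 11 in osteosarcoma against control, 17 and 6 in synovial sarcoma against control and 7 and 9 between the tumours, and with quantile normalization 22 and 7, 15 and 8, and 13 and 5. These scalings moved the median of all tested transcripts by -0.26 and -0.19, by -0.54 and -0.63 and by 0.23 and 0.37 on the log2 scale in the same order. Of the members higher than control, 14 were in both lists, 53.8% of the osteosarcoma list and 46.7% of the synovial sarcoma list, and both contrasts use the same 6 controls. The overlap over all tested transcripts was not computed, so nothing is read from these 2 shares.

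Among the 10 transcripts of highest level, several showed an intermediate step in the other sarcomas. The member of level rank 10 (511 bases) ranged from 3.90 to 15.2 RPKM over the controls, 13.8 to 261 in osteosarcoma and 106 to 1506 in synovial sarcoma, with 66.4 to 6394 in clear cell sarcoma. All 6 synovial sarcomas were above all 6 controls, by 5.01 on the log2 scale (SE 0.79, limma adjusted p = 9.13e-06), and osteosarcoma was 3.49 above them (SE 0.76, adjusted p = 0.000557) with 1 library, Col1Cre 26Right, inside the control range. In the fourth by level, of 888 bases, the middle step was found in osteosarcoma. Its controls had 4.85 to 16.9 RPKM, its synovial sarcomas 5.47 to 34.7, and its osteosarcomas 27.5 to 405 apart from Prx1Cre 42 at 0.628. Osteosarcoma was 3.04 above control (SE 0.86, limma adjusted p = 0.00567) and 2.78 above synovial sarcoma (SE 0.86, adjusted p = 0.0164). The latter call was lost when libraries with a shared title number were averaged (adjusted p = 0.0963). The second by level, of 2859 bases, was 3.66 higher on the log2 scale in osteosarcoma than in synovial sarcoma (SE 1.02, limma adjusted p = 0.00804), with values from 2.18 in Prx1Cre 42 to 1276 in Prx1Cre 28thigh against 3.53 to 156. That call too was lost with such libraries averaged (adjusted p = 0.0807, limma). Its synovial sarcomas overlapped those osteosarcoma values, and 4 of the 6 lay under the lowest control, 28.2.

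Members in consecutive rows of the table tended to vary together. There were 23 such pairs among the 219, with a median Pearson r of 0.81 (range -0.49 to 0.98) on log2(RPKM + 1) over the 13 clear cell sarcomas, while the median over all 23871 pairs was 0.064. These are descriptions over 13 libraries that share depth and Cre groups. Of the 265, 50 had another member in a neighbouring row. Whether such rows are of 1 locus is not given in the files, and the number of separate loci among the members is not known.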

How the data were processed

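Per the labels' protocols, a Qiagen RNeasy kit with DNase gave the RNA and a TruSeq kit the libraries. The submitters' processing notes name CASAVA 1.8.2, Novoalign 2.07.03 and mm9. The counting program and its use of strand are not stated there. The authors deposited RPKM values, 1 column per library, and every column was matched to a library by its title. A second deposited table, of human tumours, was not analysed here. Groups follow the labels and the series' design text.

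Class medians were computed from the RPKM values as deposited. Lengths and read numbers were recovered from the steps between RPKM values, which depend on length and depth. Tested on simulated data for 5979 transcripts, all reads were right in 99.9% and the length in 99.3%. The simulated data were built from the recovered lengths and reads, so a wrong recovered length or depth scale would not show there.

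RPKM values are not counts, so tests used limma 3.58.1 (R 4.3.3) on log2(RPKM + 1), with an intensity trend, two-sided, and Benjamini-Hochberg adjustment over all transcripts tested at 0.05. Differences are on that scale, which understates changes of low values and can overstate those of very short transcripts. The Cre fit used the 13 clear cell sarcomas and transcripts at 1 RPKM or more in at least 2 of them, and the class fit used all 32 libraries and transcripts at 1 RPKM or more in at least 6. No covariate was used. Transcripts sharing a locus may share or split reads, and a value of 0 can stand for few reads.

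The members, the tests and the naming rule were chosen with earlier results of these data known. Named by the rule are the 10 members of largest margin, the 10 of highest level and the 5 largest changes each way between TATCre and Rosa26CreER, among members of at least 100 bases, and those just inside and outside the rule. Identifiers are printed for only 4. Members called between other classes are described only among the 10 of highest level. Alternatives were other pseudocounts (0.1 and 5), other filters, median ratio scaling, quantile normalization, a length minimum of 100 bases, libraries with a shared title number averaged, other settings of the rule, and each library left out.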

Additional observations from a re-analysis of the deposited data

Results flagged for a closer look

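Within groups of 4 to 7 libraries, 45 sets of values of the groups and transcripts above were examined for 1 library far from the rest. By Dixon's criterion 12 had one. Its cut-offs give about 1 in 20 by chance only for independent, normally distributed values. RPKM was taken here without logs and the sets share libraries and transcripts, so the 12 are not set against that rate. Values of 0 in all other libraries of a group make such a result easy to meet. Of the 12, 4 were the osteosarcoma Col1Cre 22. It had 1.90% of its reads on the 219 longer members (next 0.931%), 105 RPKM of the transcript of second-largest margin (next 10.3), 1582 RPKM of the transcript of fifth-highest level (next 159) and 5.41 RPKM of uc009nko.1 (others listed at 0).

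The remaining 8 were single values. For uc009nko.1, TATCre N123-RLN had 0.476 RPKM and synovial 44 had 0.270, with the rest of each group listed at 0. For uc012fvj.1, Rosa26CreER 5 had 6.74 (next 0.738) and the control Chest3 had 0.780, the only control above 0. For uc007ubp.1, Rosa26CreER 1 had 24.4 (next 5.32), TATCre N123-Rleg 1271 (next 396), the osteosarcoma Prx1Cre 28thigh 11.6 (next 0.365) and Chest3 1.68, again the only control above 0.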

How the results depend on the processing

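The set changed with its rule but kept most of its transcripts. A margin of 8-fold gave 150 transcripts, all among the 265, and leaving out 1 library at a time gave 251 to 286. The other 8 settings of the rule gave 209 to 378, of which class means gave the most, sharing 218 with the main set. Leaving out 1 library at a time, the F test over the Cre groups called 39 to 72 members (61 in the main analysis), with 39 without TATCre N179-Larm and 40 without TATCre N123-RLN. Over all tested transcripts the F test then called 759 to 2470 (1633 in the main analysis). TATCre against Rosa26CreER called 44 to 88 (78 in the main analysis), with 44 without TATCre N179-Larm, and lower calls outnumbered higher ones in each of these fits. Over all tested transcripts that contrast then called 728 to 3212 (1928 in the main analysis). Averaging the pair of TATCre libraries titled N123, it called 39 lower and 19 higher, and 1234 over all tested transcripts. Leaving out 1 library of the classes compared, osteosarcoma against control called 24 to 39 members and synovial sarcoma against control 26 to 31. Over all tested transcripts they called 5381 to 6601 and 5457 to 6737 (6041 and 6579 in the main analysis). Synovial sarcoma against control called 34 without the osteosarcoma Prx1Cre 42, which enters the same fit, 19 with a pseudocount of 5 and 19 with shared title numbers averaged. Over all tested transcripts it then called 6822, 6728 and 4261 in that order. Osteosarcoma against synovial sarcoma gave 12 to 23 calls on leaving out 1 library, 30 with a pseudocount of 0.1 and 10 with shared title numbers averaged. Over all tested transcripts it called 3223 to 4465, 3928 and 2109 in the same order (4179 in the main analysis). Its split turned round to 7 higher and 5 lower of 12 with a pseudocount of 5. With quantile normalization it turned round too, to 13 and 5 of 18, and the cause was not tested. Over 21 results of single named members past a test, 391 alternatives kept the direction, 50 lost the call and 14 results lost it nowhere. The second-largest margin, higher in osteosarcoma than control by 1.60 on the log2 scale (adjusted p = 0.0386, limma), was 0.97 without Col1Cre 22 (adjusted p = 0.121). No paired analysis was possible because the replicate numbers that groups share are only sample numbers in the titles, TATCre shares none of them with the other Cre groups, and nothing in the labels ties equal numbers to a shared animal, litter or day. Depth limits the 46 members under 100 bases most, and 40 of them rested on fewer than 30 reads.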

Other observations

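The 46 members under 100 bases had a median margin of 21, against 8.07 for the longer ones, and in 35 of 46 the margin was at least 10. The member of largest margin in the whole set, of 56 bases, had a clear cell sarcoma median of 3987 RPKM, and its values ran from 0 to 14466 RPKM, the highest in TATCre N123-RLN. The shortest member, of 3 bases, had a median of 484 RPKM and a median of 12 reads, and was listed at 0 in 3 clear cell sarcomas while the osteosarcoma with the most had 549.6 RPKM. In 23 of the 46, at least 1 library of another class was above the clear cell sarcoma median, as in 23 of the 219 longer members. Every clear cell sarcoma was above every other library for 1 of the 46, and 5 of them were among the 61 members called across the Cre groups by limma.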
